A study of Homo sapiens with 6 samples.

Results

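Antiviral effector transcripts of the OAS, MX and ISG15 families were measured in human astrocytes held in alginate capsules. The set was chosen by symbol and names 10 genes, OAS1, OAS2, OAS3, OASL, MX1, MX2, RSAD2, ISG15, USP18 and BST2. Of these, 9 had a row among the 30949 genes of the authors' table, and MX2 was not analysed here. The cells were astrocytes of wild-type genotype. Their parental line was WTC11, an established line of human induced pluripotent cells, so all cultures share 1 line. They grew as floating aggregates within the capsules. For 48 hours, 3 cultures received vehicle alone and 3 received the agents named ITC, which are interleukin 1 alpha, TNF alpha and complement C1q. Polyadenylated RNA was then sequenced. Per the series description, separate batches of capsules were each split between both treatments. No interferon was listed among the agents added, and the label of the vehicle group does not say which carrier was used.

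As background, cells that sense interferon signal through JAK kinases to STAT proteins and IRF9, which bind a response element in the promoters of interferon-stimulated genes. OAS1, OAS2 and OAS3 detect double-stranded RNA and make 2′-5′-linked oligoadenylates that lead to the breakdown of RNA, whereas OASL lacks that activity and carries ubiquitin-like domains. MX1 is a dynamin-like GTPase that blocks viral replication, RSAD2 (viperin) makes a chain-terminating nucleotide, and BST2 (tetherin) holds budding virus particles at the cell surface. ISG15 is a ubiquitin-like protein that is joined to other proteins, and USP18 removes it and also dampens the type I interferon receptor. Astrocytes are known to express many of these genes after interferon or viral infection.

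The promoters are shown because the response element named above lies in promoters of interferon-stimulated genes. RefSeq promoters on GRCh38.p14, each 250 bases before to 50 bases after a start site, were found for 6 of the 10 genes, as 9 promoters; OAS2, OASL, MX2 and USP18 had no entry. Each was searched on both strands for 3 motifs, and matches may overlap. The interferon-stimulated response element was read as GAAA, 2 bases of any kind and GAAA. Other spacings of the GAAA runs were not searched, so the counts below leave them out. The STAT homodimer element was TTCNNNGAA, and the NF-kappa-B element was GGG, 2 bases of any kind and TTTCC. The first was present in 6 of the 9 promoters, from 5 genes, against 3.57% of 35116 promoters of the same length. The STAT element was present in 3 of the 9 (7.66% of all promoters) and the NF-kappa-B element in 1 (1.91%). A match describes letters in these windows and is not evidence that a factor binds there. In the stretches of 80 bases below, written 5′ to 3′ on the strand of the gene, capitals mark matches to any of the 3 motifs.
OAS1: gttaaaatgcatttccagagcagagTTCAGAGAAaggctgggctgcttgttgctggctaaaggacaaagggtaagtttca
OAS3: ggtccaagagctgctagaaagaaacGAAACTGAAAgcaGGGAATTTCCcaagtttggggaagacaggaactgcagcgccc
MX1: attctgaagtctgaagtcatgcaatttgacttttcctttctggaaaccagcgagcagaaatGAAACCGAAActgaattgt
RSAD2: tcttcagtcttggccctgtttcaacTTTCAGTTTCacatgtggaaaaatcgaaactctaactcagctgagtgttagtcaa
ISG15: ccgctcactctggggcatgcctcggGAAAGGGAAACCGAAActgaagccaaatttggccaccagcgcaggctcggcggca
BST2: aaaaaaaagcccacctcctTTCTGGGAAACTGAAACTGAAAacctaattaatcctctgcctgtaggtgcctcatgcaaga

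The OAS1 stretch lies at chr12:112906769-112906848 on the plus strand and holds a STAT element. The response element with 2 bases between its GAAA runs is not in this promoter window. Outside the stretch shown, the window does hold GAAACGAAA, with 1 base between the runs, a spacing that was not searched. The OAS3 stretch (chr12:112938306-112938385, plus strand) holds a response element beginning 143 bases before the start site and, 3 bases after it, the only NF-kappa-B match of the set. OAS3 has another response element ending 3 bases before the start site, outside the stretch shown. The MX1 stretch (chr21:41420508-41420587, plus strand) has its response element from base 12 to base 21 after the start site of the first of 3 listed promoters. The RSAD2 stretch (chr2:6877607-6877686, plus strand) belongs to the second of its 2 promoters and carries the response element on the opposite strand. The first RSAD2 promoter, which had no match, also holds GAAACGAAA. In ISG15 (chr1:1013359-1013438, plus strand) 2 overlapping response elements form 1 run, and in BST2 (chr19:17405706-17405785, minus strand) 2 response elements overlap each other and the first of them overlaps a STAT element. BST2 has another STAT element 58 bases before its start site, outside the stretch shown.

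Total counts per library ranged from 17398921 to 29941685. Mitochondrial transcripts took 3.65% to 5.03% of the counts in vehicle and 2.64% to 3.43% in ITC, so these groups did not overlap. Of the astrocyte markers, GFAP, AQP4, S100B, SLC1A3, ALDH1L1 and SOX9 were all detected, with a summed level of 1346 to 1623 CPM in vehicle and 1306 to 1743 CPM in ITC. CPM is a count scaled by library size after TMM scaling, which corrects for differences in library composition. Of those markers AQP4, S100B, SLC1A3 and ALDH1L1 were called lower in ITC, SOX9 higher, and GFAP was not called. SOX9 was the largest part of the summed level, with means of 611 CPM in vehicle and 1099 CPM in ITC. Its rise masks the lower level of other markers in that sum. The mean of AQP4 went from 166 CPM in vehicle to 19.7 CPM in ITC, and that of S100B from 403 CPM to 196 CPM. Because the RNA is from whole cultures, fewer cells of a type and less RNA per cell cannot be told apart. At a Benjamini-Hochberg threshold of 0.05, the quasi-likelihood test of edgeR called 6599 genes of the 16756 it was run on (39.4%), with 3423 higher in ITC (20.4%) and 3176 lower (19%). That balance moved to 2662 higher and 4059 lower with upper quartile scaling, and to 2282 higher and 4804 lower with library size alone. The median log2 change of all tested genes was -0.01, -0.16 and -0.24 in the same order.

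Of the 9 measured effector genes, 8 passed the filter on low counts, and 7 of these 8 were called higher in ITC, where 20.4% of all tested genes were. MX1, ISG15, USP18 and BST2 met the filter's level of 0.527 CPM in all 3 vehicle libraries. OAS1, OAS3, OASL and RSAD2 met it in 3 libraries only through ITC, which ties their inclusion to their high level there, so the count is given as a description. All 7 called genes rose by at least 4-fold, as did 4.39% of all tested genes. Every ITC library lay above every vehicle library in 7 of the 8 tested genes, against 26.1% of all tested genes. The number of these genes called higher was 7 under each scaling.

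**Figure D1:**
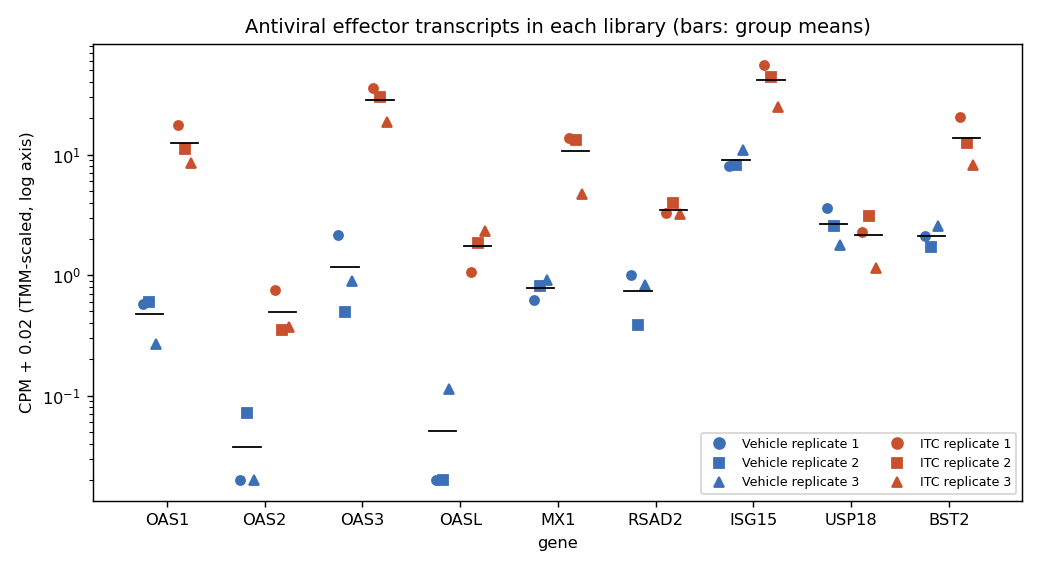
TMM-scaled CPM, plotted as CPM + 0.02 on a log axis, for the 9 measured antiviral effector genes, with 1 point per library and a bar at each group mean of 3 vehicle (blue) or 3 ITC (orange) libraries. The ITC points lie above all vehicle points in every gene except USP18, whose groups overlap.

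Of the synthetases that make oligoadenylates, OAS1 and OAS3 rose in ITC, and OAS2 was too low for the main test. OAS1 (ENSG00000089127, chromosome 12, 112906777 to 112933222, GRCh38 as in the authors' table, plus strand) was at 0.557, 0.576 and 0.248 CPM in vehicle replicates 1, 2 and 3, and at 17.4, 11.1 and 8.56 CPM in ITC replicates 1, 2 and 3. The lowest ITC library was 14.8 times the highest vehicle library. OAS1 rose by 4.80 ± 0.38 on the log2 scale (SE, n = 3 per group, edgeR adjusted p = 1.22e-07), a 27.9-fold change from 31 counts over the vehicle group to 632 over ITC.

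OAS3, the synthetase with the most annotated exon bases of the family (8251), lies 5130 bases beyond OAS1 on the same strand (chromosome 12, 112938352 to 112973249). It was at 2.13, 0.472 and 0.867 CPM in vehicle and at 35.7, 30.1 and 18.6 CPM in ITC. The vehicle libraries spread widely, with replicate 1 highest, yet the groups stayed apart. OAS3 rose by 4.60 ± 0.39 on the log2 scale (edgeR adjusted p = 2.67e-07), and by 5.30 without vehicle replicate 1, a move of 1.62 times in the fold.

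OAS2, the third gene of the cluster (chromosome 12, 112978395 to 113011723), was barely detected. It had 0, 1 and 0 counts in vehicle and 12, 6 and 6 counts in ITC, which is 0.728, 0.333 and 0.354 CPM in ITC. The ratio of ITC over vehicle was 34.0, with a 95% exact counting interval of 5.55 to 1399.8 that covers counting error only. OAS2 did not pass the low-count filter and has no result in the main test. Without a filter edgeR gave an adjusted p of 0.00900 and a log2 change of 4.53 ± 1.43, and in the authors' deposited table its log2 value, vehicle over ITC, was -4.97 with an adjusted p of 0.00934. Without a filter edgeR called 11% of 30949 genes higher. A separate DESeq2 run, which gave an adjusted p to 21948 genes, called 15.9% of them higher.

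OASL, the family member without synthetase activity, lies apart from the cluster (chromosome 12, 121019111 to 121039242, minus strand). It had 0, 0 and 3 counts in vehicle and 17, 33 and 39 counts in ITC, or 1.03, 1.83 and 2.30 CPM in ITC. Unlike OAS1 and OAS3, it was lowest in ITC replicate 1. The ratio of ITC over vehicle was 42.1 (95% exact counting interval 13.9 to 207.9). OASL rose by 5.24 ± 0.78 on the log2 scale (edgeR adjusted p = 8.86e-05). This value rests on the 3 counts of vehicle replicate 3, and without that library the fitted change was 7.97, which is no bound because the remaining vehicle libraries are at 0.

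The ratio of OAS3 to OAS1 within a library does not depend on scaling between libraries. Deposited FPKM divides by a listed gene length and by a scaled library size. That length equals the bases of all annotated exons of the gene, not of 1 transcript. By FPKM the ratio was 2.30, 0.491 and 2.10 in vehicle and 1.23, 1.62 and 1.30 in ITC. The vehicle values straddled the ITC values, and the mean log2 ratio was 0.41 in vehicle and 0.46 in ITC (exact two-sided permutation p = 1, where 0.1 is the smallest that 3 against 3 allows). OAS1 exceeded OAS2 by 30.3, 42.2 and 30.6 times in the ITC libraries. OAS3 exceeded OASL by 14.7, 7.0 and 3.44 times in ITC replicates 1, 2 and 3, a spread that follows the opposite order of both genes among these libraries.

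Among effectors that act on virus directly, MX1, BST2 and RSAD2 all rose. MX1 (ENSG00000157601, chromosome 21, 41420304 to 41459214, plus strand) was at 0.603, 0.786 and 0.898 CPM in vehicle and at 13.8, 13.2 and 4.72 CPM in ITC. The vehicle libraries lay close together while ITC replicate 3 lay well below the other ITC libraries. MX1 rose by 3.77 ± 0.40 on the log2 scale (edgeR adjusted p = 2.86e-06), a 13.6-fold change.

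BST2 (ENSG00000130303, chromosome 19, 17402939 to 17405648, minus strand) was at 2.09, 1.68 and 2.54 CPM in vehicle and at 20.3, 12.5 and 8.20 CPM in ITC. The groups did not overlap, and the lowest ITC library was 3.23 times the highest vehicle library. BST2 rose by 2.68 ± 0.32 on the log2 scale (edgeR adjusted p = 8.75e-06), or 6.42-fold. BST2 is also a known marker of plasmacytoid dendritic cells, of whose other markers IL3RA fell from 6.43 ± 3.16 to 1.83 ± 0.227 CPM (SD, n = 3), TCF4 was not called, and CLEC4C and LILRA4 were not analysed here. The summed level of IL3RA and TCF4 was 132 to 153 CPM in vehicle and 99.4 to 135 CPM in ITC. TCF4 carries that sum, with means of 135 CPM in vehicle and 120 CPM in ITC.

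RSAD2 (ENSG00000134321, chromosome 2, 6865806 to 6898239, plus strand) was at 0.974, 0.367 and 0.805 CPM in vehicle and at 3.28, 3.94 and 3.19 CPM in ITC. Its 3 ITC libraries were the most alike of the set, with the highest 1.24 times the lowest. RSAD2 rose by 2.25 ± 0.39 on the log2 scale (edgeR adjusted p = 0.000355), or 4.75-fold. CMPK2, which encodes a nucleotide kinase that supplies the precursor used by viperin, is transcribed from the opposite strand and shares 14 exon bases with RSAD2. CMPK2 went from 7.57 ± 1.93 to 37.3 ± 0.975 CPM (SD, n = 3), a rise of 2.29 ± 0.19 on the log2 scale (edgeR adjusted p = 2.96e-07).

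ISG15 was the most abundant of these transcripts in both groups. ISG15 (ENSG00000187608, chromosome 1, 1001138 to 1014540, plus strand) was at 7.98, 8.23 and 10.8 CPM in vehicle and at 55.5, 43.5 and 24.9 CPM in ITC. Even the lowest ITC library was 2.31 times the highest vehicle library. ISG15 rose by 2.19 ± 0.25 on the log2 scale (edgeR adjusted p = 7.41e-06), or 4.56-fold, from 678 counts over vehicle to 2120 over ITC.

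USP18, the protease that removes ISG15 from its targets, did not follow. USP18 (ENSG00000184979, chromosome 22, 18149899 to 18177397, plus strand) was at 3.57, 2.52 and 1.76 CPM in vehicle and at 2.25, 3.05 and 1.12 CPM in ITC. The groups overlapped, with the highest value of all in a vehicle library and the lowest in an ITC library. The log2 change was -0.28 ± 0.40 (edgeR adjusted p = 0.616), and its sign turned when ITC replicate 3 or vehicle replicate 1 was left out. In the authors' deposited table the log2 value, vehicle over ITC, was 0.28 with an adjusted p of 0.707. Of the 75-base stretches in USP18 transcripts, 18.3% also occur in its paralog USP41, and how reads were divided between this pair is uncertain. USP41 itself had 6 counts over the vehicle libraries and 3 over the ITC libraries.

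The ratio of ISG15 to USP18 within a library was compared next. By FPKM, ISG15 was 5.05, 7.40 and 13.9 times USP18 in vehicle and 55.9, 32.3 and 50.3 times USP18 in ITC. The groups did not overlap, with mean log2 ratios of 3.01 and 5.49. For BST2 over USP18 the ratio was 1.11, 1.27 and 2.74 in vehicle and 17.2, 7.82 and 13.9 in ITC. For ISG15 over BST2 it was 4.55, 5.83 and 5.06 in vehicle and 3.25, 4.13 and 3.61 in ITC, a smaller shift in the other direction. Each of these 3 comparisons gave an exact two-sided permutation p of 0.1, the smallest that 3 against 3 allows, and 0.167 adjusted over the 5 ratios tested. For OAS1 over MX1 the ratio was 1.61, 1.28 and 0.480 in vehicle and 2.20, 1.46 and 3.16 in ITC, and the groups overlapped (exact two-sided permutation p = 0.2, adjusted 0.25). These 4 pairs were chosen after their values were seen.

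**Figure D2:**
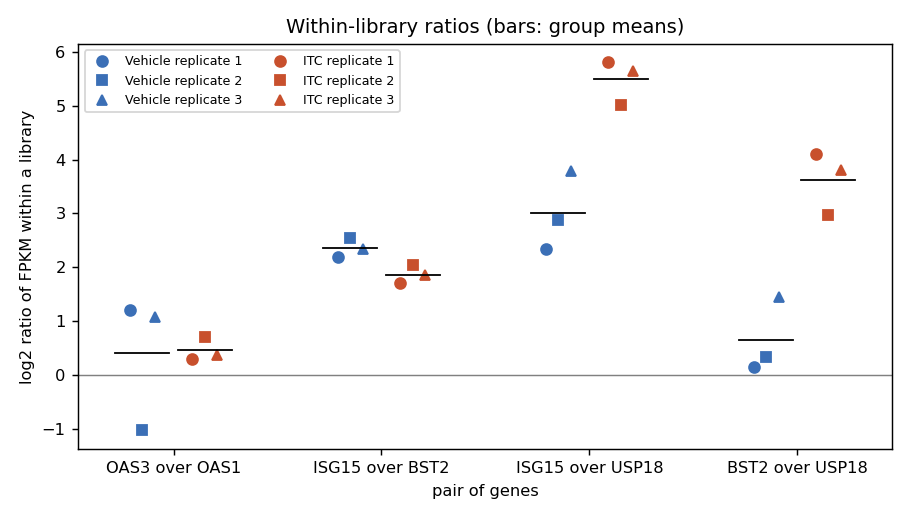
Log2 ratio of FPKM between pairs of genes within each library, with 1 point per library and a bar at each group mean. ISG15 over USP18 and BST2 over USP18 are higher in all 3 ITC libraries than in any vehicle library, while OAS3 over OAS1 overlaps between the groups.

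Enzymes that attach ISG15 to proteins rose with it. Of 6 tested, 5 were called higher, against 20.4% of all tested genes, and none lower, against 19%, with a median log2 change of 1.33 against -0.01 over all tested genes. The activating enzyme UBA7 rose by 1.43 ± 0.27, from 2.84 ± 0.202 to 7.70 ± 2.54 CPM (SD, n = 3). The conjugating enzyme UBE2L6 rose by 1.23 ± 0.19, to 59.4 ± 17.1 CPM. HERC5, the main ISG15 ligase in human cells, rose by 2.39 ± 0.24 to 28.5 ± 5.36 CPM. Its relative HERC6, the main ISG15 ligase in mouse, rose by 3.21 ± 0.22 to 23.4 ± 4.57 CPM. TRIM25, a ligase with several substrates, rose by 0.92 ± 0.20, and ARIH1, at 70.4 ± 5.32 and 88.3 ± 4.66 CPM, was not called (0.33 ± 0.15, edgeR adjusted p = 0.0897). ARIH1 was called only with the replicate block (adjusted p = 0.0287).

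**Figure D3:**
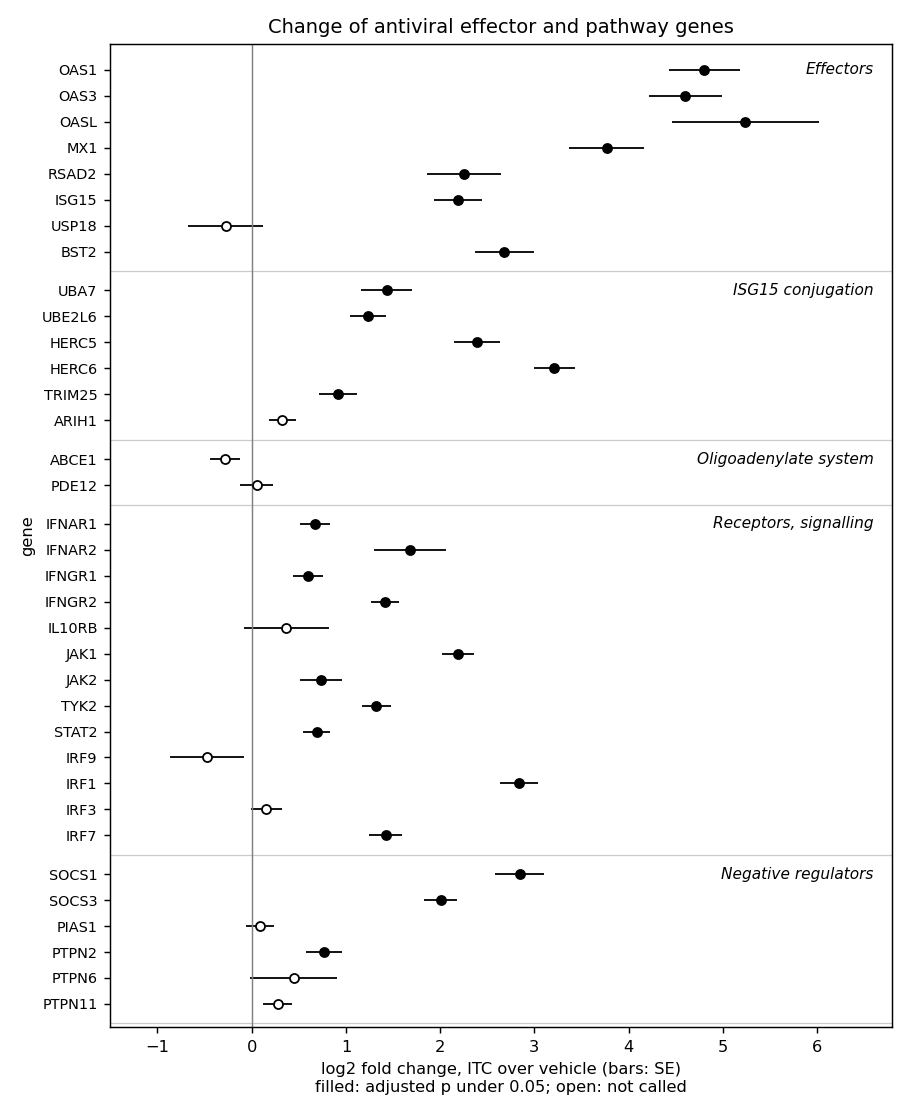
Log2 fold change of ITC over vehicle with SE from edgeR's quasi-likelihood test for the tested antiviral effectors and the tested genes of 4 related lists. Filled points passed an adjusted p of 0.05 and open points did not. USP18 at -0.28, ABCE1 at -0.28 and IRF9 at -0.48 are open points below 0, while the other 7 antiviral effectors are filled and lie above 2.

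Of 2 tested genes that act on the oligoadenylate system after the synthetases, neither was called. ABCE1, which inhibits this system and also recycles ribosomes, was not called (-0.28 ± 0.16, edgeR adjusted p = 0.184), nor was PDE12, which degrades oligoadenylates (0.05 ± 0.17, edgeR adjusted p = 0.837). ABCE1 was called lower with library size alone (adjusted p = 0.0251).

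The interferon genes that had a row held few counts. Of 21 interferon genes listed, 3 had a row, none of them passed the low-count filter, and the others were not analysed here. IFNE had 0, 4 and 15 counts in vehicle and none in ITC, IFNW1 had 2 counts over ITC, and IFNA21 had 1 count over each group. Without a filter edgeR called IFNE lower in ITC (adjusted p = 0.0443), and DESeq2 did not call it (adjusted p = 0.132). IFNA21 and IFNW1 were not called without a filter and had no adjusted p from DESeq2.

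Of 13 tested receptors and signalling genes, 10 were called higher, against 20.4% of all tested genes, and none lower, against 19%, with a median log2 change of 0.74. The type I receptor chain IFNAR1 went from 152 ± 17.2 to 243 ± 18.6 CPM (0.67 ± 0.16) and IFNAR2 from 0.879 ± 0.282 to 2.85 ± 0.274 CPM (1.68 ± 0.38). The kinases JAK1 and TYK2 rose by 2.19 ± 0.17 and 1.32 ± 0.15, JAK1 to 482 ± 8.10 CPM. STAT2, a signal-transducing transcription factor, rose by 0.69 ± 0.15. For IRF9, its DNA-binding partner, the level in vehicle was 2.64 ± 0.933 CPM and that in ITC 1.90 ± 0.796 CPM, and it was not called (-0.48 ± 0.39, edgeR adjusted p = 0.362). IRF1, a factor that also binds the response element, rose by 2.84 ± 0.20, from 6.68 ± 1.03 to 47.7 ± 10.1 CPM, and IRF7 by 1.42 ± 0.17. The calls of JAK2 and IFNGR1 were lost in 7 and 2 of 16 alternatives.

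Among 6 tested negative regulators of interferon signalling, 3 were called higher (20.4% of all tested genes) and none lower (19% of all), with a median log2 change of 0.61. SOCS1, an inhibitor of JAK kinases, rose by 2.84 ± 0.26 to 14.9 ± 3.53 CPM, SOCS3 by 2.0 ± 0.17 to 164 ± 28.7 CPM and the phosphatase PTPN2 by 0.77 ± 0.19. PIAS1, PTPN6 and PTPN11 were not called. USP18, which also dampens the receptor, was not called, as given above.

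Of 38 tested members of a list of other interferon-stimulated effectors, 28 were called higher, 2 lower and 8 were not called, with a median log2 change of 1.54. Over all tested genes 20.4% were called higher and 19% lower. SP100 and SAMD9 passed the filter on low counts only through ITC. SP100, a nuclear body protein, rose by 5.68 ± 0.27 to 17.97 ± 2.17 CPM, and IFI6 rose by 3.37 ± 0.26 to 288 ± 119 CPM. The ADP-ribosylation partners PARP9 and DTX3L rose by 2.28 ± 0.16 and 2.74 ± 0.19, HELZ2 by 2.67 ± 0.19 and C19orf66, an inhibitor of viral translation, by 2.96 ± 0.23. EIF2AK2, another classical sensor of double-stranded RNA, had means of 122.7 ± 21.3 CPM (vehicle) and 129 ± 16.7 CPM (ITC) and was not called (0.07 ± 0.17, edgeR adjusted p = 0.768). The 2 genes called lower were IFIT1, which binds viral RNA and fell by 1.06 ± 0.21 from 13.6 ± 1.88 to 6.53 ± 1.26 CPM, and IFITM1, a membrane protein that restricts viral entry, which fell by 0.88 ± 0.18. IFIT1 was named after its values were seen.

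Levels can be compared between genes only per length. By FPKM, the order in vehicle was ISG15 (8.85 to 11.5), BST2 (1.53 to 2.27), USP18 (0.828 to 1.75), then RSAD2, OAS3, OAS1 and MX1, all between 0.05 and 0.270, and last OASL and OAS2. BST2 and USP18 overlapped in vehicle, and so did each neighbouring pair from RSAD2 to MX1. In ITC the order was ISG15 (26.8 to 61.8), BST2 (7.43 to 19.0), OAS3 (2.28 to 4.54), OAS1 (1.75 to 3.69), MX1 (0.556 to 1.68), USP18 (0.534 to 1.47), RSAD2 (0.668 to 0.838), OASL (0.308 to 0.663) and OAS2 (0.0546 to 0.122). Neighbours that overlapped in ITC were OAS3 with OAS1, MX1 with USP18, and USP18 with RSAD2. USP18 had rank 3 in vehicle and rank 6 in ITC, without a called change of its own.

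**Figure D4:**
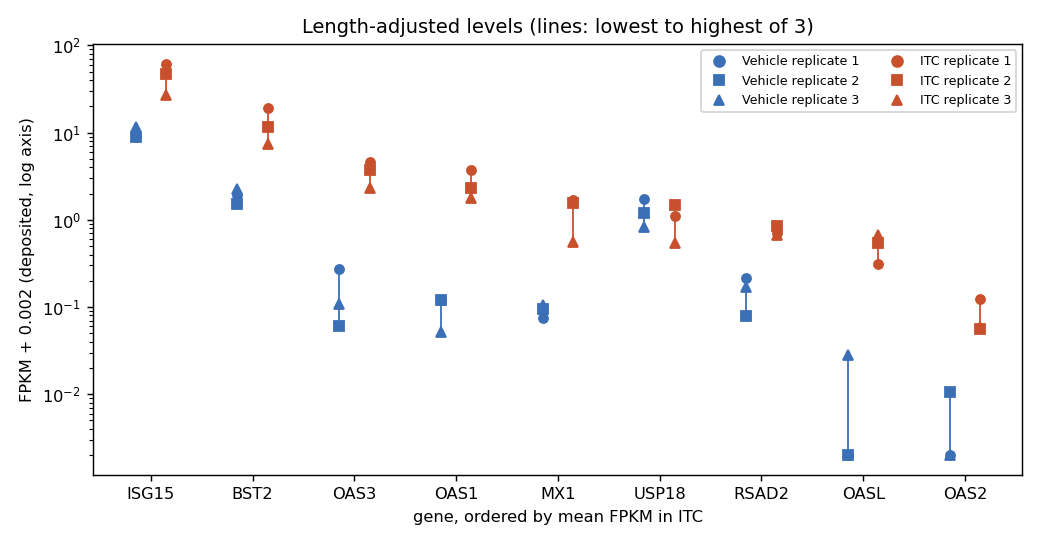
Deposited FPKM of the 9 measured genes, plotted as FPKM + 0.002 on a log axis and ordered by their mean in ITC, with 1 point per library and a line from the lowest to the highest of 3. ISG15 leads in both groups, and USP18 is the only gene whose vehicle and ITC ranges overlap.

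The ITC libraries differed among themselves in a repeated way. ITC replicate 3 was the lowest ITC library for 6 of the 7 called effectors, and replicate 1 the highest for 5 of 7. Among all 3423 genes called higher in ITC, replicate 3 was lowest in 52.7% and replicate 1 highest in 57.2%. Replicate 1 exceeded replicate 3 by 2.92 times for MX1, 2.47 for BST2, 2.23 for ISG15, 2.04 for OAS1 and 1.92 for OAS3. OASL ran the other way, at 2.23 times more in replicate 3 than in replicate 1, and RSAD2 differed by only 1.03 times. The median log2 ratio of replicate 3 over replicate 1 was -1.03 for the 7 called effectors, -0.29 for the 28 other effectors called higher and -0.21 for all genes called higher. This difference between libraries of 1 group was not tested, and it adds to the SE of each gene. Each of the 7 genes kept its call without ITC replicate 3, and also without any other single library.

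**Figure D5:**
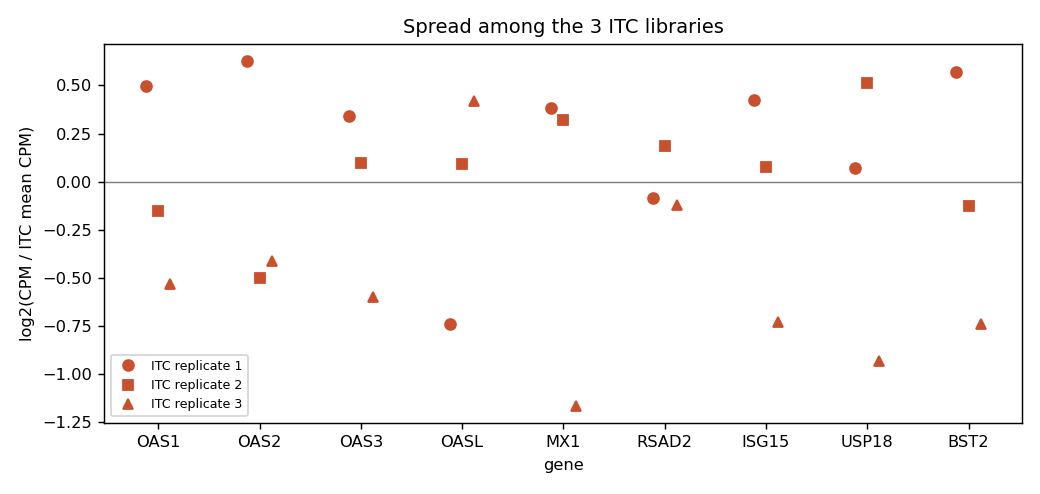
Log2 of CPM over the mean CPM of the 3 ITC libraries for each gene, with 1 point per ITC library. Replicate 3 (triangles) is lowest for most genes, OASL is lowest in replicate 1, and the 3 libraries lie closest together for RSAD2.

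Genes beside the effectors did not all move with them. Besides CMPK2, TMPRSS2, a surface protease gene that ends 5337 bases from MX1 on the opposite strand, rose by 2.13 ± 0.30, from 2.56 ± 1.19 to 11.4 ± 1.19 CPM (SD, n = 3). HES4, 966 bases from ISG15, was not called (-0.19 ± 0.19, edgeR adjusted p = 0.461). The lincRNA BISPR, which starts 38 bases from BST2 on the opposite strand, had 18 counts over vehicle and 12 over ITC and was not tested. RPH3A beside OAS1 and TUBA8 beside USP18 had at most 7 counts over a group. Shared exon bases were few, at most 3.83% of a gene's exon length (ISG15, with a pseudogene on the opposite strand), and whether counting used strand is not given in the sources used here.

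Likeness across the 6 libraries was measured as Pearson's r between a gene's log2 CPM and the mean log2 CPM of the 8 tested effectors. The 5 genes most alike outside the set were PCDH7, XRN2, CHST1, FOS and EBF1, with r from 0.998 to 0.999. Of 15106 genes with at least 1 CPM on average, 141 had r above 0.99. All of these points share the same 2 groups and 6 libraries. Each effector was compared with the mean of the others in the same way. BST2 and OAS3 gave the highest r (0.979 for both), OASL the lowest among the called genes (0.913), and USP18 gave -0.22.

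Markers of other cell types moved in several directions. Of 8 microglia and macrophage markers, PTPRC, P2RY12 and TYROBP were not analysed here, AIF1 and C1QA had no count in ITC, and the summed level was 0.603 to 0.734 CPM in vehicle and 1.61 to 2.77 CPM in ITC. ITGAM was the 1 tested marker of that list and rose, to 1.47 ± 0.262 CPM. It passed the filter on low counts only through ITC, which ties its inclusion to its high level there. Endothelial markers summed to 0.279 to 1.25 CPM in vehicle and 0.888 to 1.36 CPM in ITC, and none of the 4 was tested. Of 4 pericyte and fibroblast markers, 2 rose and 2 fell, with sums of 26.9 to 40.2 CPM in vehicle and 68.8 to 104.6 CPM in ITC. RGS5 carries the rise of that sum, with means of 17.1 CPM in vehicle and 80.8 CPM in ITC. DCN rose from 0.228 to 1.32 CPM, whereas PDGFRB fell from 10.1 to 0.830 CPM and LUM from 6.46 to 1.42 CPM. DCN, too, passed the filter only through ITC. Neuron markers summed to 690.2 to 860.1 CPM in vehicle and 240.6 to 318.8 CPM in ITC, and oligodendrocyte lineage markers to 281 to 343 CPM and 65.5 to 71.4 CPM. The part of these shifts in the levels above was not tested.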

How the data were processed

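The authors deposited 1 table of 30949 genes for the 6 libraries. The deposited counts are whole numbers for each gene. Deposited FPKM is scaled by the gene length listed beside it, and the deposited normalized signal is counts over 1 size factor per library, as checked by division. Deposited log2 fold changes are vehicle over ITC, with the authors' p-values. The submitters' processing notes name GRCh38 and DESeq2. The sources used here do not give the aligner or counter. There were 0 unmapped sample columns and 0 rows naming no gene.

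Groups and replicate numbers came from the titles. Counts were tested with edgeR 4.0.16 (R 4.3.3), filterByExpr, TMM and the quasi-likelihood test without covariates, adjusted over all tested genes with a threshold of 0.05. The SE is the log2 change over the square root of F. Alternatives were other scalings and filters, leaving out each library, a replicate block, DESeq2 1.42.0, limma-voom (limma 3.58.1) and limma on log2(FPKM + 1) and log2(FPKM + 0.1). The pipeline was tested on simulated counts. Python 3.11.15 with scipy 1.17.1 gave the ratios, and matplotlib 3.10.9 the figures. Exon overlap and shared 75-base stretches used GENCODE 29. Depth of 17398921 to 29941685 counts per library limits the weakly expressed genes.

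The effectors and lists were chosen with earlier results of these data known. All effectors are named, with genes of the 5 short lists. Some genes of the lists are not reported here and were left out of the list counts. Of the other effectors the rule takes up to 6 called with the smallest p and up to 6 not called or lower with the highest CPM. It also takes genes within 25 kb and the 5 most alike; some of these are not printed. Same-numbered libraries of both groups deviated together in some pairs only, so the numbers were not used as pairs. Nothing says that the replicates are separate cultures beyond the batches that the series description names, so p-values measure the spread between these libraries. No pair of libraries within a group looked like 1 library deposited again (chi-square over its degrees of freedom at least 11.4).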

Additional observations from a re-analysis of the deposited data

How the results depend on the processing

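The count of effectors called higher was 7 in the main test and 6 to 8 under the 16 alternatives, with 0 called lower in each. It was 8 without a filter and with DESeq2, where OAS2 was tested, and 6 with at least 1 CPM in 3 libraries, where OASL was not. OAS1, OAS3, MX1, RSAD2, ISG15 and BST2 kept direction and call in all 16 alternatives and OASL in its 15. Among these 7 the highest adjusted p was 0.00290, for RSAD2 without ITC replicate 1, and OAS2 had 0.00900 without a filter and 0.00934 with DESeq2. USP18 was called in none of 16, and leaving out 1 library gave log2 changes of USP18 from -0.62 to 0.044, with the sign turned without ITC replicate 3 (0.044) and without vehicle replicate 1 (2.02e-05). On the log2(FPKM + 1) scale changes of low genes are smaller, such as 0.57 for OASL. Over all genes, leaving out 1 library gave 2470 to 3420 higher and 2480 to 3597 lower, and library size alone gave 4804 lower. The correlations of deviations from group means, across genes, were 0.27, 0.0073 and 0.38 for same-numbered libraries. For libraries of different number they ran from -0.34 to 0.070, and not every library correlated best with its own number. The replicate block gave 4332 genes higher and 4084 lower, and 7 effectors higher and 0 lower; it changed no effector's call. Depth limits OAS2, OASL and the interferon genes most.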
